A study of Mus musculus with 8 samples.

Results

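The genes described here are 43 genes of the integrated stress response, amino acid supply and the unfolded protein response, chosen by name and read through the platform annotation. The probe set that stands for a gene is the brightest, on average over the arrays, of those annotated to it alone, and 42 of the 43 genes had one, among 18193 genes in all. Pycr1 was not analysed here. The 42 measured genes were sorted by role into 10 stress factors and other targets of ATF4, 9 enzymes of amino acid synthesis, 5 amino acid transporters, 4 sensors and signalling factors of the endoplasmic reticulum (ER), 10 ER chaperones and folding enzymes, and 4 genes of ER-associated degradation.

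The RNA came from cultured mouse leukemia cells driven by the fusion oncogene MLL-AF9 and was hybridised to 8 Affymetrix arrays, in 4 groups of 2. All cells carried a hairpin by label, against luciferase (shLUC), which has no mouse target, or against the deacetylase gene Sirt1 (shSirt1), and all grew in IMDM with serum (15%) and the cytokines IL-3 and IL-6 (10 ng/ml each) and SCF (20 ng/ml). For shLUC the groups were DMSO and 6 days of 3 µM EPZ4777, and for shSirt1 they were DMSO and 21 days of 3 µM EPZ4777. EPZ4777 inhibits DOT1L, the methyltransferase of histone H3 lysine 79. The titles join each DMSO array to an EPZ4777 array by a code (A4 and D11 for shLUC, A1 and A5 for shSirt1) that the labels do not explain. The labels give no time for DMSO and do not say that arrays were separate cultures, so the spread behind each p-value is that among these arrays and may be technical. Hairpin label and days in EPZ4777 cannot be told apart. Sirt1 itself, in DMSO and EPZ4777 in turn, measured 9.46 and 9.44 (log2 intensity) in A4, 9.58 and 9.83 in D11, 8.70 and 8.85 in A1, and 9.54 and 9.73 in A5. Sirt1 was therefore lower than in shLUC cells in A1 only, and the group is called labelled shSirt1 below, with A1 and A5 given apart where it matters.

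ATF4 is a transcription factor whose translation rises when the initiation factor eIF2 is phosphorylated by kinases that sense amino acid shortage, ER stress, heme shortage or viral RNA. It pairs with other bZIP proteins, binds C/EBP-ATF response elements and induces genes that make, import and charge amino acids, together with feedback factors such as TRIB3 and ATF3. In the ER, the sensors PERK (Eif2ak3), IRE1 (Ern1) and ATF6 answer unfolded proteins, and ATF6 and spliced XBP1 raise chaperones through ER stress elements. Fast-growing cells such as leukemic blasts draw on both amino acid import and serine synthesis. Only RNA was measured here, not eIF2 phosphorylation, ATF4 protein or Xbp1 splicing, and in bulk RNA fewer cells of a type and less RNA per cell cannot be told apart.

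In shLUC cells after 6 days of EPZ4777, 2 of the 42 genes fell, both targets of ATF4: the pseudokinase gene Trib3, to 46.7% of its DMSO intensity, and the cystine importer gene Slc7a11, to 39.0%. None rose (limma, Benjamini-Hochberg adjusted p under 0.05 over all 18193 genes). Of all genes, 2.36% fell by the same rule. In labelled shSirt1 cells after 21 days 0 of 42 passed, where 0.396% of all genes passed. At an unadjusted p under 0.05 in the same limma fit 0 rose and 7 fell, which cannot be set against that adjusted share. In the effect of EPZ4777 averaged over both hairpin labels, 6 of 42 fell and 0 rose, against 6.00% of all genes that fell. These were Trib3, Slc7a11, the leucine importer gene Slc7a5, the ER sensors Ern1 and Atf6, and the disulfide isomerase gene Pdia6. The average uses the same arrays as both separate comparisons and is not independent of them.

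Most of the genes are bright on the array, since 40 of 42 lay at or above the median level of all genes (Cbs and Slc7a3 lay below), and bright genes passed more often. Of the 9097 genes at or above that level, 4.45% fell in shLUC cells and 11.1% in the averaged effect, against 4.76% and 14.3% of the 42. The share of the 42 that fell thus lay near that of bright genes. The median difference of the 42 was -0.27 (log2) in shLUC, -0.15 in labelled shSirt1 and -0.19 averaged, against -0.05, -0.05 and -0.06 for the bright genes and 0.00, 0.01 and 0.01 for all genes. Single arrays moved these medians of the 42: without the D11 EPZ4777 array the shLUC median was -0.09 and the averaged one -0.12, without the A4 EPZ4777 array the averaged one was -0.29, and in labelled shSirt1 it was -0.06 without the A5 EPZ4777 array and -0.28 without the A1 EPZ4777 array. A negative difference was measured for 31, 33 and 33 of the 42, that is for 73.8%, 78.6% and 78.6%, where 55.6%, 57.5% and 57.5% of bright genes had one.

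With the code as a fixed block, which compares each EPZ4777 array with the DMSO array of its own code, 1 of 42 rose and 6 fell in shLUC cells (3.63% of all genes rose and 3.61% fell). In labelled shSirt1 cells 1 fell (0.907% of all genes), and averaged 1 rose and 11 fell (7.49% and 8.59%). The block added Atf3, Slc7a5, Atf6 and Pdia6 as lower and Ddit4 as higher in shLUC, Chac1 as lower in labelled shSirt1, and Atf3, Sesn2, Shmt2, Slc7a1 and Pdia4 as lower and Ddit4 as higher in the average. The calls rested on few arrays: without the A4 or the D11 DMSO array of shLUC, 0 of 42 passed in shLUC and 0 in the average, and without the D11 EPZ4777 array 0 and 1 passed. Averaged calls also fell to 2 without the A5 EPZ4777 array of labelled shSirt1, to 3 without its A1 DMSO array and to 4 without its A5 DMSO array, and were 10 without the A4 EPZ4777 array of shLUC.

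By the arrays alone, the EPZ4777 pair lay wholly below the DMSO pair for 20 of the 42 in shLUC (47.6%, against 28.2% of all genes and 40.6% of bright genes) and wholly above for 6 (24.2% of all genes). In labelled shSirt1 cells it lay below for 19 (45.2%, against 23.0% and 33.8%) and above for 1, Ddit3 (26.0% of all genes). Within all 4 codes 18 had a negative difference (42.9%, against 19.6% of all and 32.7% of bright genes) and 3 a positive one (18.7% of all genes), namely Ddit3, Slc7a3 and Edem1. The 2 arrays of a group did not weigh alike: the median over the 42 was -0.14 in A4 and -0.35 in D11, -0.09 in A1 and -0.25 in A5.

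In the same arrays neutrophil markers moved with the drug under both labels, and macrophage markers mainly in shLUC. The summed intensity of 16 neutrophil markers was 28373 to 36783 in shLUC DMSO, 66478 to 111162 in shLUC EPZ4777, 12327 to 30593 in labelled shSirt1 DMSO and 68350 to 118550 in labelled shSirt1 EPZ4777. In the averaged effect 11 of 16 rose. In that fit 1979 of 18193 genes passed in either direction, and 1091 of these fell. With the code as a block, a different fit, 7.49% of all genes rose. The sum of 14 macrophage markers was 11929 to 14176, 23546 to 30831, 4186 to 9770 and 9071 to 16588 in the same order of groups. In shLUC cells 8 of 14 rose, where 724 of 18193 genes passed in either direction and 429 of these fell. The part of these changes in the results was not tested. Of 14 blast markers 1, Cd34, was dim on every array. Their sum, which the brightest genes carry, lay between 53481 and 64936. The blast list was mixed. Its median difference was 0.03 in A4, -0.05 in D11, -0.13 in A1 and -0.28 in A5, and 4, 8, 8 and 10 of the 14 were lower. From this list Meis1, a homeobox gene that MLL fusions maintain, fell (-3.32 in the average, limma adjusted p = 0.0071). The myeloid integrin gene Itgam rose (1.39, limma adjusted p = 0.037). These 2 do not stand for the list. The T cell list summed to 163 to 179 and the B cell list to 217 to 277. The mast cell list summed to 457 to 559 in shLUC DMSO, 619 to 686 in shLUC EPZ4777, 520 to 560 in labelled shSirt1 DMSO and 895 to 1343 in labelled shSirt1 EPZ4777, and the megakaryocyte and erythroid list, in which Pf4 alone passed, to 395 to 444, 981 to 1226, 444 to 507 and 585 to 671. Both sums were higher in EPZ4777 with no overlap under either label. So was the T cell sum, 165 to 166 in DMSO and 167 to 176 in EPZ4777 in shLUC. In labelled shSirt1 it was 163 to 164 and 175 to 179. Of the 9 mast cell genes 4 were dim on every array, Fcer1a, Cpa3, Mcpt2 and Cma1. The median difference of the 9 was 0.33 in A4, 0.01 in D11, 0.12 in A1 and 0.09 in A5, and 1, 4, 4 and 2 of them were lower. The stroma list summed to 598 to 1340 in shLUC arrays and, in labelled shSirt1 arrays, to 841 to 1090 in DMSO and 383 to 451 in EPZ4777, with a median difference within code of -1.37 in A1 and 0.07 in A5.

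**Figure D1:**
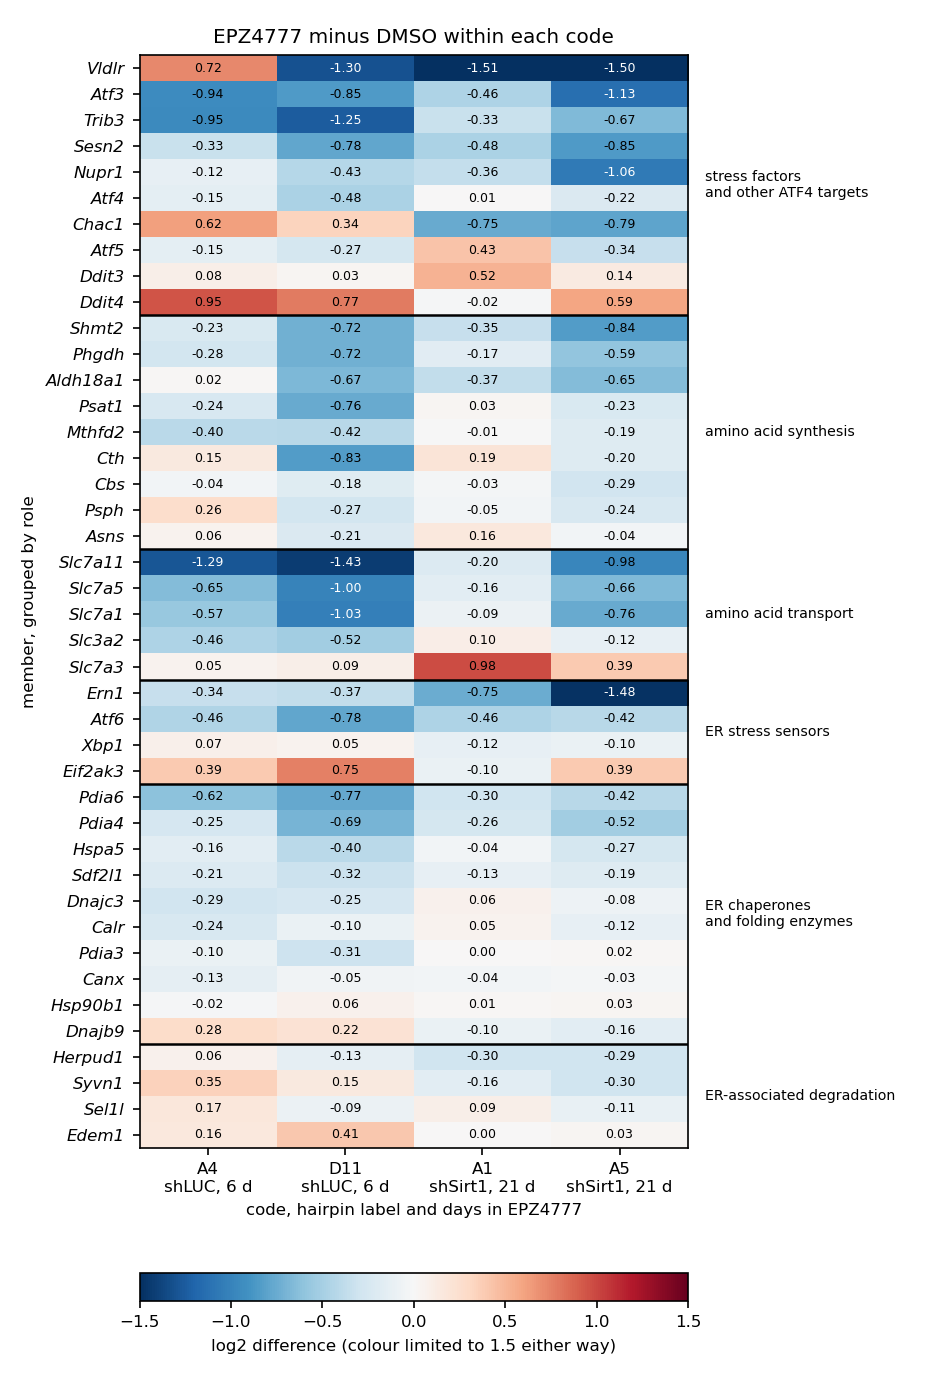
Difference of log2 intensity, EPZ4777 minus DMSO, for each of the 42 genes (vertical axis, grouped by role) within each code (horizontal axis). Blue is lower and red higher in EPZ4777. Transporters other than Slc7a3 are blue in both shLUC codes, chaperones are pale, and Chac1 is red in both shLUC codes and blue in A1 and A5.

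Promoters were read for the letters of known response elements in the 250 bases before the transcript start, for the 38 genes with a window in RefSeq (build GRCm38.p6). Atf6, Slc7a3, Cth and Slc7a5 had none. The C/EBP-ATF core TGATGNAA, on either strand, occurred in 7 of 38 (18.4%), namely Atf3, Chac1, Nupr1, Vldlr, Asns, Slc7a11 and Herpud1, and in 3.91% of 27025 genes with a window. The cyclic AMP element core TGACGT occurred in 3 of 38 (7.89%, against 7.29% of genes). The ER stress element, CCAAT followed after 9 bases by CCACG, occurred in 7 of 38 (18.4%), namely Hspa5, Hsp90b1, Dnajc3, Calr, Canx, Pdia6 and Syvn1, and in 0.130% of genes. Its second part alone, CCACG, which is contained in every full element, occurred in 25 of 38 (65.8%) and in 31.0% of genes. The genes were picked for these pathways, so the shares describe the list and test nothing.

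The pieces shown first hold the C/EBP-ATF core in capitals (TTNCATCA on the other strand), 5′ to 3′ on the gene's strand, for the gene that fell most and for 3 other ATF4 targets, of which Atf3 was lower in all 4 codes, Chac1 had opposite signs under the 2 labels and Asns differed little. They are Slc7a11 (chr3:50443614-50443713, minus strand), Atf3 (chr1:191183374-191183473, minus), Chac1 (chr2:119351019-119351118, plus) and Asns (chr6:7693210-7693309, minus).
Slc7a11: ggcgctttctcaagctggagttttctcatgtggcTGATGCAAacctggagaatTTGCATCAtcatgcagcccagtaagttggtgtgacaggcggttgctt
Atf3: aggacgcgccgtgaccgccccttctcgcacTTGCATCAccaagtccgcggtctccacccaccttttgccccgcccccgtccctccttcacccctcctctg
Chac1: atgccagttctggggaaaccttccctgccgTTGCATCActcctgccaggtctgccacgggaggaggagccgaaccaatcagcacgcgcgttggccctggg
Asns: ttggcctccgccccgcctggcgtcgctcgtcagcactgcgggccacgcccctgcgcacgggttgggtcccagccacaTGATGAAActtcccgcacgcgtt
The core lies at bases -66 to -59 and, on the other strand, -47 to -40 of Slc7a11, at -110 to -103 of Atf3, at -193 to -186 of Chac1 and at -23 to -16 of Asns. With the same core, the averaged difference ran from -0.97 for Slc7a11 to -0.01 for Asns.

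The pieces shown next hold the whole ER stress element in capitals, for the main ER chaperone, for the folding gene that fell and for a ligase gene whose differences had opposite signs under the 2 labels. They are Hspa5 (chr2:34771990-34772089, plus strand), Pdia6 (chr12:17266461-17266560, plus) and Syvn1 (chr19:6046476-6046575, plus).
Hspa5: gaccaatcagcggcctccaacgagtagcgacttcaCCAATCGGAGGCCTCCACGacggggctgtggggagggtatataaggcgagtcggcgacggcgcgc
Pdia6: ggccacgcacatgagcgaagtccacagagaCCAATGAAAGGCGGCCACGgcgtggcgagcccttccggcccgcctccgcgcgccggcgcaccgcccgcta
Syvn1: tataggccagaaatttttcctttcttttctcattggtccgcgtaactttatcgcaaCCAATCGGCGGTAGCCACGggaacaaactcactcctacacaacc
The element lies at -65 to -47 of Hspa5, -98 to -80 of Pdia6 and -44 to -26 of Syvn1, and the averaged differences of these genes were -0.22, -0.53 and 0.01. Trib3 and Ern1, which fell in the averaged effect, hold neither full element in this window, which says only that these letters are not in it.

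Among the stress factors and other ATF4 targets, 1 of 10 fell in shLUC cells and 1 in the average, Trib3 both times. Their median difference was -0.28 in shLUC and -0.58 in labelled shSirt1. Trib3 encodes a pseudokinase that ATF4 induces and that restrains further signalling. It measured 8.75 (A4) and 8.69 (D11) in shLUC DMSO and 7.79 and 7.44 in EPZ4777, and 9.05 (A1) and 8.91 (A5) in labelled shSirt1 DMSO and 8.72 and 8.24 in EPZ4777. Each EPZ4777 pair lay below its DMSO pair. Trib3 fell by 1.10 ± 0.19 (log2, SE, n = 2 against 2, limma adjusted p = 0.036) in shLUC and by 0.80 ± 0.13 averaged (limma adjusted p = 0.020), while the labelled shSirt1 difference was -0.50 ± 0.19 (adjusted p = 0.27). Both of its probe sets were lower past the threshold in shLUC and in the average.

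Atf3, a stress-induced repressor related to ATF4, measured 7.73 and 8.15 in shLUC DMSO, 6.78 and 7.30 in shLUC EPZ4777, 7.76 and 7.47 in labelled shSirt1 DMSO, and 7.30 and 6.34 in labelled shSirt1 EPZ4777. No pairs overlapped, but the spread within pairs was wide. The averaged difference was -0.85 ± 0.24 (limma adjusted p = 0.067, and 0.019 with the code as a block). Sesn2, which encodes a leucine-sensing inhibitor of mTORC1, measured 8.72 and 8.39 in shLUC DMSO, 8.39 and 7.61 in shLUC EPZ4777, 9.12 and 8.81 in labelled shSirt1 DMSO and 8.64 and 7.96 in labelled shSirt1 EPZ4777. In shLUC the pairs touch, and in labelled shSirt1 they lie apart. Its averaged difference was -0.61 ± 0.22 (limma adjusted p = 0.13, and 0.028 with the block).

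Ddit4 and Chac1 went against this direction in shLUC cells. Ddit4 encodes REDD1, an inhibitor of mTORC1 that ATF4, glucocorticoids and hypoxia induce. It measured 8.06 and 7.73 in shLUC DMSO and 9.0 and 8.51 in EPZ4777, which do not overlap, and 8.33 and 7.79 in labelled shSirt1 DMSO and 8.31 and 8.38 in EPZ4777, which do. The shLUC difference was 0.86 ± 0.23 (limma adjusted p = 0.087, and 0.046 with the block). Chac1 encodes an enzyme that degrades glutathione and is a target of ATF4. It measured 7.43 and 7.06 in shLUC DMSO, 8.04 and 7.39 in shLUC EPZ4777, 7.89 and 7.78 in labelled shSirt1 DMSO, and 7.14 and 7.0 in labelled shSirt1 EPZ4777. The difference was 0.48 ± 0.23 in shLUC (limma adjusted p = 0.28) and -0.77 ± 0.23 in labelled shSirt1 (limma adjusted p = 0.20, and 0.044 with the block).

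Atf4 itself was bright and did not pass. It measured 12.74 and 12.70 in shLUC DMSO, 12.60 and 12.22 in shLUC EPZ4777, 12.70 and 12.81 in labelled shSirt1 DMSO and 12.71 and 12.60 in labelled shSirt1 EPZ4777. The EPZ4777 pair lay below the DMSO pair in shLUC, and the labelled shSirt1 pairs overlapped. The difference was -0.31 in shLUC (95% interval -0.65 to 0.02, limma adjusted p = 0.26) and -0.10 in labelled shSirt1 (-0.44 to 0.23, limma adjusted p = 0.76). Vldlr, a lipoprotein receptor gene, measured 5.80 and 6.18 in shLUC DMSO, 6.52 and 4.87 in shLUC EPZ4777, 8.85 and 6.15 in labelled shSirt1 DMSO, and 7.34 and 4.66 in labelled shSirt1 EPZ4777. The high arrays were both of code A1, the difference was -1.50 ± 1.12 in labelled shSirt1 (limma adjusted p = 0.55), and only 2 of its 6 probe sets shared the sign of the shLUC difference. For Nupr1, Atf5 and Ddit3, a chromatin-binding stress factor, a relative of ATF4 and the death-linked factor CHOP, differences ran from -0.28 to 0.06 in shLUC and from -0.71 to 0.33 in labelled shSirt1, and none passed.

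Genes of amino acid synthesis, read by the probe set that stands for each, did not pass in either label or in the average. All 9 differences were negative in shLUC and 8 of 9 in labelled shSirt1, with medians of -0.34 and -0.14. With every probe set tested, 1 of 4 of Shmt2 was called lower in shLUC. In the average 2 of 4 of Shmt2 and 1 of 5 of Aldh18a1 were called lower. At an unadjusted p under 0.05 in limma, 2 of 9 were lower in shLUC, 1 of 9 in labelled shSirt1 and 2 of 9 in the average, and none was higher. Phgdh encodes the first enzyme of serine synthesis from glycolysis. It measured 12.73 and 12.55 in shLUC DMSO, 12.45 and 11.83 in shLUC EPZ4777, 12.83 and 12.58 in labelled shSirt1 DMSO and 12.65 and 11.99 in labelled shSirt1 EPZ4777, and the D11 and A5 arrays in EPZ4777 were the low ones. The difference was -0.50 ± 0.27 in shLUC (limma adjusted p = 0.36) and -0.38 ± 0.27 in labelled shSirt1 (0.53).

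Shmt2, the mitochondrial enzyme gene that turns serine into glycine and folate-bound carbon, measured 10.78 and 10.71 in shLUC DMSO, 10.56 and 9.99 in shLUC EPZ4777, 10.85 and 10.77 in labelled shSirt1 DMSO, and 10.50 and 9.93 in labelled shSirt1 EPZ4777. Neither pair overlapped with its DMSO pair, and all 4 of its probe sets were lower. The averaged difference was -0.53 ± 0.17 (limma adjusted p = 0.087, and 0.049 with the block). The other 7 are Asns (asparagine synthetase), Psat1 and Psph (serine synthesis), Mthfd2 (mitochondrial folate cycle), Aldh18a1 (proline synthesis), and Cth and Cbs (transsulfuration), and their differences ran from -0.50 to 0.00 in shLUC and from -0.51 to 0.06 in labelled shSirt1. Asns, which ATF4 controls directly, differed by -0.08 in shLUC (95% interval -0.47 to 0.31) and 0.06 in labelled shSirt1 (-0.33 to 0.45). The lowest median of the 9 within a code was that of D11, -0.67, against -0.04 in A4, -0.03 in A1 and -0.24 in A5.

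Amino acid transporters had the lowest median of the 6 roles in shLUC cells, -0.80, with 1 of 5 called lower, and -0.41 in labelled shSirt1, with 0 of 5 (1 lower at an unadjusted p under 0.05 in limma). In the average 2 of 5 fell. Slc7a11 encodes the subunit that exchanges glutamate for cystine, the source of cysteine for glutathione. It measured 8.14 and 8.0 in shLUC DMSO and 6.86 and 6.57 in shLUC EPZ4777, and 8.27 and 8.63 in labelled shSirt1 DMSO and 8.07 and 7.65 in labelled shSirt1 EPZ4777. Neither pair overlapped, and A1 differed least. Slc7a11 fell by 1.36 ± 0.19 in shLUC (limma adjusted p = 0.030) and by 0.97 ± 0.14 averaged (limma adjusted p = 0.015), and measured -0.59 ± 0.19 in labelled shSirt1 (0.24). Both of its probe sets passed in shLUC.

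Slc7a5, the LAT1 subunit that imports leucine and other large amino acids, measured 11.32 and 11.39 in shLUC DMSO, 10.67 and 10.39 in shLUC EPZ4777, 11.27 and 11.24 in labelled shSirt1 DMSO and 11.11 and 10.58 in labelled shSirt1 EPZ4777. It fell by 0.62 ± 0.13 in the average (limma adjusted p = 0.034), and the shLUC difference was -0.83 ± 0.19 (limma adjusted p = 0.060, and 0.049 with the block). Slc3a2 encodes the heavy chain that both of these subunits need at the membrane. It measured 11.01 and 10.99 in shLUC DMSO and 10.55 and 10.47 in EPZ4777, against 10.95 and 10.998 and then 11.04 and 10.88 in labelled shSirt1. Its difference was -0.49 ± 0.11 in shLUC (limma adjusted p = 0.053) and -0.01 (95% interval -0.26 to 0.24) in labelled shSirt1.

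The cationic amino acid importer gene Slc7a1 measured 11.68 and 11.62 in shLUC DMSO, 11.10 and 10.59 in shLUC EPZ4777, 11.74 and 11.52 in labelled shSirt1 DMSO, and 11.65 and 10.76 in labelled shSirt1 EPZ4777. Its averaged difference was -0.61 ± 0.21 (limma adjusted p = 0.11, and 0.046 with the block). Its relative Slc7a3, one of the dim genes, measured 5.25 and 4.87, then 5.30 and 4.96 in shLUC, and 6.05 and 5.16, then 7.03 and 5.55 in labelled shSirt1, so that both A1 arrays were highest within their groups. The difference was 0.68 ± 0.49 in labelled shSirt1 (limma adjusted p = 0.53).

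**Figure D2:**
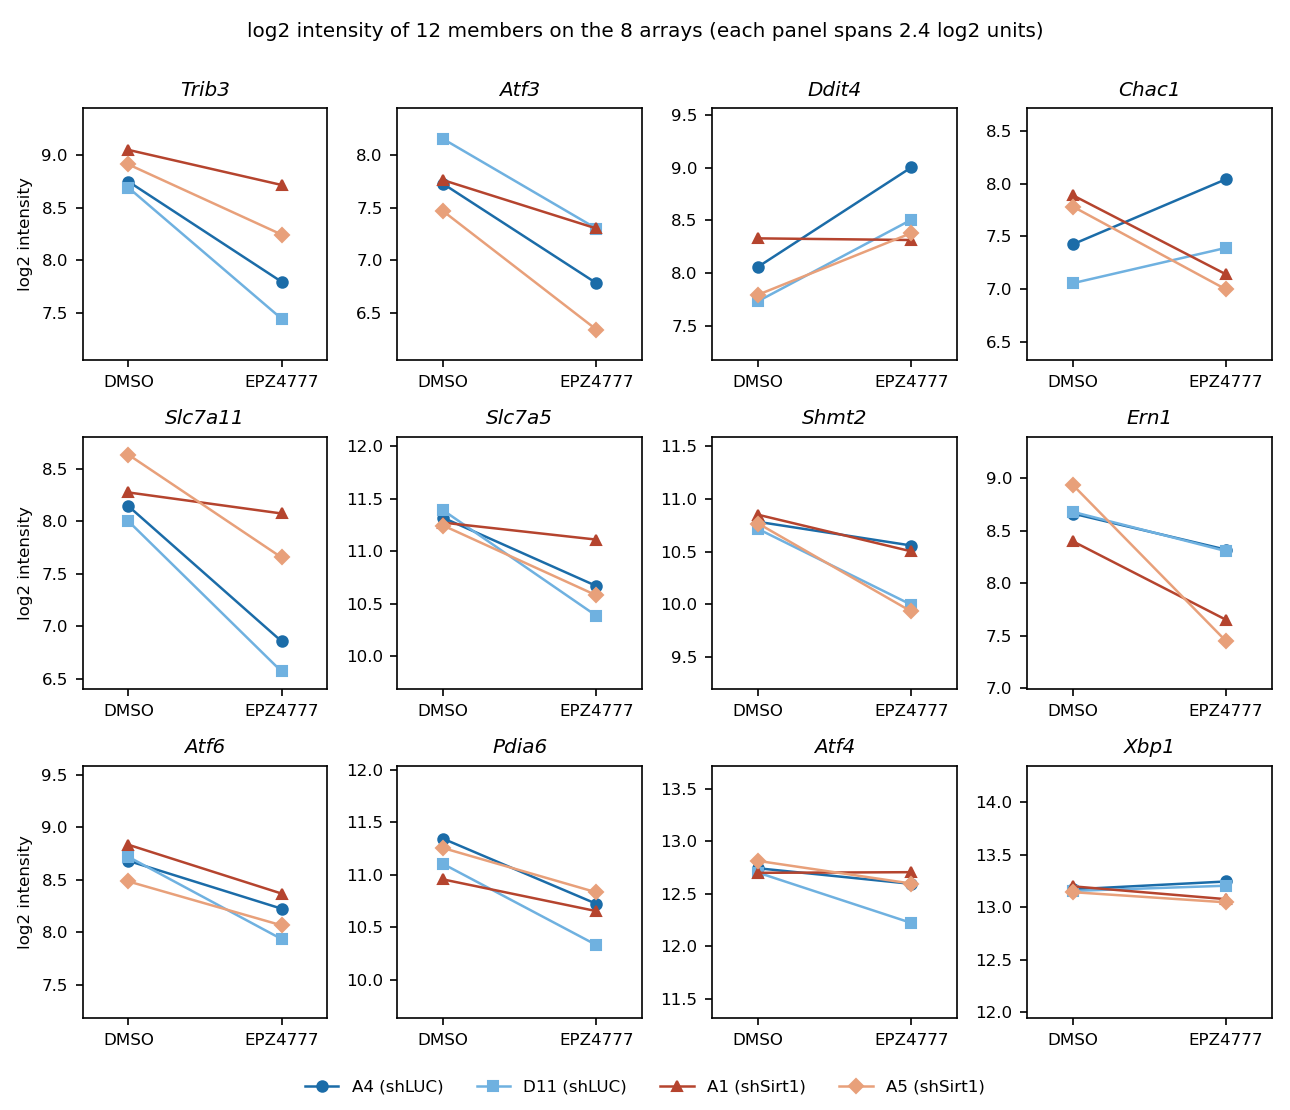
log2 intensity (vertical axis) of 12 of the genes in DMSO and EPZ4777 (horizontal axis), with a line for each code and no averaging. Lines of Trib3, Slc7a11, Slc7a5, Atf6, Ern1 and Pdia6 all go down, with A1 shallowest for Trib3, Slc7a11 and Slc7a5. Atf4 and Xbp1 span 0.59 and 0.20 log2 units over all arrays, and Chac1 lines cross.

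The ER sensors split. Read by the probe set that stands for each gene, 2 of 4 fell in the average, Ern1 and Atf6. By the same reading 0 of 4 passed in either label alone (1 higher and 1 lower in shLUC, and 0 and 2 in labelled shSirt1, at an unadjusted p under 0.05 in limma). With every probe set tested, 1 of 5 of Ern1 and 1 of 3 of Atf6 were called lower in shLUC. Ern1 encodes IRE1, the kinase and nuclease that splices Xbp1 RNA. It measured 8.66 and 8.68 in shLUC DMSO, 8.32 and 8.30 in shLUC EPZ4777, 8.40 and 8.93 in labelled shSirt1 DMSO and 7.65 and 7.45 in labelled shSirt1 EPZ4777, with no overlap under either label. Ern1 fell by 0.74 ± 0.13 in the average (limma adjusted p = 0.022), and the differences were -0.36 ± 0.18 in shLUC (0.31) and -1.12 ± 0.18 in labelled shSirt1 (0.068). Of its 5 probe sets 4 fell in the averaged effect.

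Atf6 measured 8.68 and 8.72 in shLUC DMSO, 8.22 and 7.94 in shLUC EPZ4777, 8.83 and 8.48 in labelled shSirt1 DMSO and 8.37 and 8.07 in labelled shSirt1 EPZ4777. It encodes the ER membrane protein that is cut to release a transcription factor. Atf6 fell by 0.53 ± 0.12 in the average (limma adjusted p = 0.040), with differences of -0.62 ± 0.17 and -0.44 ± 0.17 under the 2 labels, and 2 of its 3 probe sets fell. Xbp1, the target of IRE1, measured 13.17 and 13.15, then 13.24 and 13.20 in shLUC, and 13.20 and 13.14, then 13.08 and 13.05 in labelled shSirt1. Its difference was 0.06 in shLUC (95% interval -0.16 to 0.29) and -0.11 in labelled shSirt1 (-0.33 to 0.12). Eif2ak3, which encodes PERK, an eIF2 kinase, measured 8.24 and 8.26 in shLUC DMSO and 8.63 and 9.01 in EPZ4777, then 8.38 and 8.23 and 8.28 and 8.61 in labelled shSirt1. Its shLUC difference was 0.57 ± 0.17 (limma adjusted p = 0.11), and only 1 of its 3 probe sets had that sign in shLUC.

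ER chaperones and folding enzymes had a median difference of -0.24 in shLUC and -0.09 in labelled shSirt1. Read by the probe set that stands for each gene, 0 of 10 passed in either label and 1 fell in the average, Pdia6. With every probe set tested, 1 of 5 of Dnajc3 was also called lower in the average. At an unadjusted p under 0.05 in limma, 2 were lower in shLUC and 0 in labelled shSirt1. Pdia6 and Pdia4 encode protein disulfide isomerases, which form and reshuffle disulfide bonds. Pdia6 measured 11.34 and 11.10 in shLUC DMSO, 10.72 and 10.33 in shLUC EPZ4777, 10.95 and 11.25 in labelled shSirt1 DMSO and 10.65 and 10.83 in labelled shSirt1 EPZ4777. It fell by 0.53 ± 0.13 in the average (limma adjusted p = 0.044), a call that was lost in 8 of 16 alternatives, among them the mean of its 2 probe sets. Pdia4 measured 10.24 and 10.15, then 9.99 and 9.46 in shLUC, and 9.88 and 10.25, then 9.62 and 9.73 in labelled shSirt1, with an averaged difference of -0.43 ± 0.14 (limma adjusted p = 0.096, and 0.0499 with the block), and the other of its 2 probe sets had the opposite sign.

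Hspa5 encodes BiP, the main ER chaperone and the usual readout of ER stress. It measured 13.65 and 13.62 in shLUC DMSO, 13.49 and 13.21 in shLUC EPZ4777, 13.47 and 13.55 in labelled shSirt1 DMSO and 13.44 and 13.28 in labelled shSirt1 EPZ4777. The EPZ4777 pairs lay just below the DMSO pairs, and the differences were -0.28 ± 0.13 (limma adjusted p = 0.26) and -0.15 ± 0.13 (0.59). Of its 3 probe sets, 1 dimmer one went the other way and rose in the averaged effect by 0.48 (limma adjusted p = 0.037 over all probe sets), so the probe sets of this gene disagree. The other 7, Hsp90b1, Dnajb9, Dnajc3, Calr, Canx, Pdia3 and Sdf2l1, which bind or refold proteins in the ER, had differences from -0.27 to 0.25 in shLUC and from -0.16 to 0.02 in labelled shSirt1. The 95% interval of Hsp90b1 in shLUC was -0.22 to 0.27.

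The 4 genes of ER-associated degradation, which extracts misfolded proteins to the proteasome, had a median of 0.14 in shLUC and -0.12 in labelled shSirt1. Read by the probe set that stands for each gene, none passed, also not at an unadjusted p under 0.05 in limma. Edem1, a lectin that marks glycoproteins for disposal, measured 10.72 and 10.59 in shLUC DMSO, 10.88 and 10.997 in shLUC EPZ4777, 10.63 and 10.44 in labelled shSirt1 DMSO and 10.63 and 10.47 in labelled shSirt1 EPZ4777. Its difference was 0.28 ± 0.12 in shLUC (limma adjusted p = 0.24) and 0.02 in labelled shSirt1. Herpud1, a ubiquitin-like scaffold of the pathway, measured 10.50 and 10.39, then 10.56 and 10.26 in shLUC, and 10.54 and 10.48, then 10.24 and 10.19 in labelled shSirt1, where its difference was -0.30 ± 0.13 (limma adjusted p = 0.32). Sel1l and Syvn1, the adaptor and the ligase of the retrotranslocation complex, differed by 0.04 and 0.25 in shLUC and by -0.01 and -0.23 in labelled shSirt1. The probe sets of Sel1l disagree: only 1 of 5 had the sign given here in shLUC, and a dimmer one was lower there (-0.75, limma adjusted p = 0.049 over all probe sets) and in the average (-0.50, 0.038).

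Whether the EPZ4777 effect differed between labels was tested as the effect in labelled shSirt1 minus that in shLUC. Of 42 genes 0 passed, as of all genes (0% of 18193), while 2 were higher and 3 lower at an unadjusted p under 0.05 in limma. With the block 0 of 42 passed and 0.0165% of all genes. The largest of these differences was that of Chac1, -1.25 ± 0.32 (limma adjusted p = 0.59). For Slc7a11 it was 0.77 ± 0.27 (limma adjusted p = 0.69), for Ern1 -0.76 ± 0.25 (0.65), for Trib3 0.60 ± 0.26 (0.75) and for Slc3a2 0.48 ± 0.15 (0.64). The probe sets of Ern1 disagree here: 3 of 5 had that sign, and they ran from -0.76 to 0.39. For 5 of 42 both codes of one label moved opposite to both codes of the other, a share near the 11.2% of all genes.

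**Figure D3:**
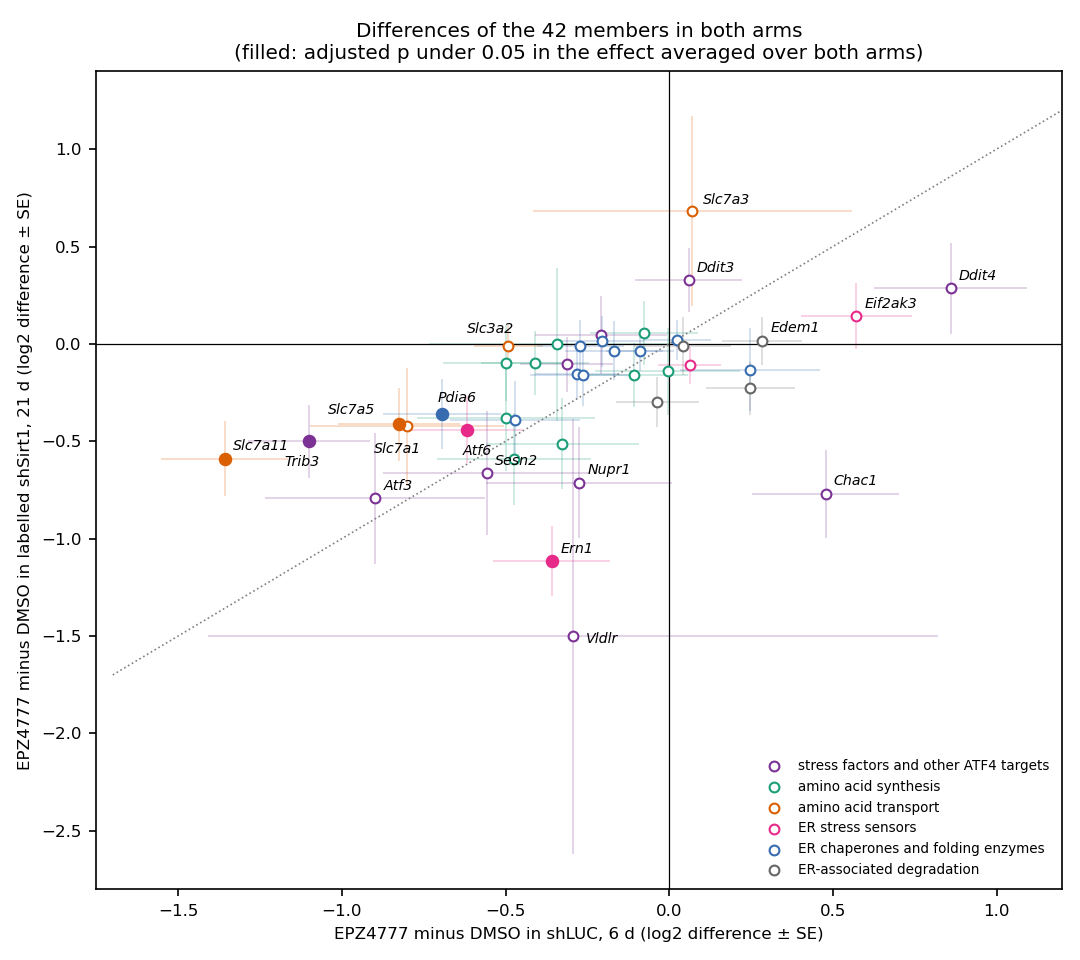
log2 difference, EPZ4777 minus DMSO, of the 42 genes in shLUC (horizontal axis) and in labelled shSirt1 (vertical axis), with SE bars, coloured by role. Filled points passed in the averaged effect, and the dotted line marks equal differences. Slc7a11 and Trib3 lie above the line, Ern1 below it, and Chac1 alone among the labelled points lies to the lower right.

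Cells labelled shSirt1 were then set against shLUC cells in the same agent. In DMSO 0 of 42 passed, as of all genes (0% of 18193), and 1 was higher and 0 lower at an unadjusted p under 0.05 in limma. The median of the 42 was 0.00. The arrays did not overlap for 7 higher genes (17.0% of all genes) and 4 lower ones (22.2%). The gene with that p was Chac1, at 0.60 ± 0.23 (limma adjusted p = 0.88), and Vldlr differed by 1.51 ± 1.12, with the A1 array far above A5.

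In EPZ4777, where the days in drug differ as well, 0 of 42 passed against 0.308% of all genes, and 5 were higher and 5 lower at an unadjusted p under 0.05 in limma. The median was 0.06 (-0.07 without the D11 or the A1 EPZ4777 array, and 0.22 and 0.19 without the A4 or the A5 EPZ4777 array), and the arrays did not overlap for 8 higher (21.0% of all genes) and 9 lower genes (18.2%). Slc7a11 differed by 1.15 ± 0.19 (limma adjusted p = 0.078), Trib3 by 0.86 ± 0.19 (0.12) and Slc3a2 by 0.45 ± 0.11 (0.14). Ern1 differed by -0.76 ± 0.18 (limma adjusted p = 0.14) and Chac1 by -0.65 ± 0.23 (0.28). The sign of the Ern1 difference was shared by 3 of its 5 probe sets. These comparisons share arrays with those of EPZ4777 against DMSO.

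Other genes of the same pathways were read from 7 further lists. For comparison, 2.36% of all genes fell in shLUC and 6.00% in the average, and 4.45% and 11.1% of bright genes. In shLUC 724 of 18193 genes passed in either direction, 429 of them lower and the rest higher. In the average 1979 passed, 1091 of them lower and the rest higher. With the block 3.61% of all genes fell and 3.63% rose in shLUC, and 8.59% fell and 7.49% rose in the average. A count near these shares says nothing particular about its list. The first holds 18 aminoacyl-tRNA synthetases, which charge tRNAs and many of which ATF4 induces, and the tRNA exporter gene Xpot. Its genes had a negative difference for 19 of 19 under both labels, with medians of -0.43 in shLUC and -0.26 in labelled shSirt1. In shLUC 1 of 19 fell (3 with the block), Farsb (-0.70, limma adjusted p = 0.047), and in the average 3 fell, Farsb (-0.48), Kars (-0.42) and Wars (-0.38, limma adjusted p = 0.0499). With the block 9 of 19 fell in the average. The next list, of 13 genes, holds eIF2 kinases, eIF2B subunits, subunits of the eIF2 phosphatase, the eIF2 subunit gene Eif2s2 and Eif4ebp1. Of the 13, 2 fell in shLUC and in the average, Eif2b3 (-1.01 and -0.74) and Eif2b1 (-0.76 and -0.58). Both encode subunits of eIF2B, the exchange factor that phosphorylated eIF2 inhibits. With the block 4 fell in the average.

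Of 20 other genes linked to ATF4, 0 passed in shLUC (3 higher and 5 lower at an unadjusted p under 0.05 in limma), and in the average 2 rose, among them the bZIP factor gene Jdp2 (0.75), and 3 fell, Bcat1 (-1.38), which transaminates branched-chain amino acids, Got1 (-0.90), which makes aspartate, and Shmt1 (-0.45). With the block 5 fell in shLUC and 6 in the average. Of 15 other amino acid transporters, 1 fell in shLUC, Slc7a6 (-0.80). In the average 4 rose and 1 fell: the light chain genes Slc7a8 (1.37) and Slc7a7 (1.03) and the carrier gene Slc36a4 (0.68) were among those higher, and Slc7a6 (-0.65) was lower. With the block 3 rose and 1 fell in shLUC, and 4 rose and 3 fell in the average. Their median in shLUC was 0.08, where that of the 5 transporters above was -0.80.

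Of 48 further genes of ER folding, export and degradation, 1 fell in shLUC, the disulfide reductase gene Dnajc10 (-1.48). In the average 5 fell, among them the thioredoxin-domain gene Txndc5 (-2.22), Dnajc10 (-1.61), Pdia5 (-0.86) and Ssr1 (-0.39), and 0 rose. With the block 2 fell in shLUC and 8 in the average. Of 12 cytosolic and mitochondrial heat shock genes, 1 fell in shLUC, Hspd1 (-0.81), and 3 in the average, Hsph1 (-0.68), Hspd1 (-0.50) and its partner Hspe1 (-0.38). With the block 3 fell in shLUC, and 1 rose and 4 fell in the average. Of 15 genes of NRF2 and glutathione, 0 passed in shLUC (2 higher and 3 lower at an unadjusted p under 0.05 in limma), and in the average 1 rose, Me1 (1.53). With the block 2 rose and 1 fell in the average. In labelled shSirt1 cells 0 genes of these 7 lists passed, and with the block 2 rose (Slc7a7 and Slc7a8) and 2 fell (Dnajc10 and Txndc5). Among all 18193 genes 0.396% passed there, and with the block 239 rose and 165 fell.

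**Figure D4:**
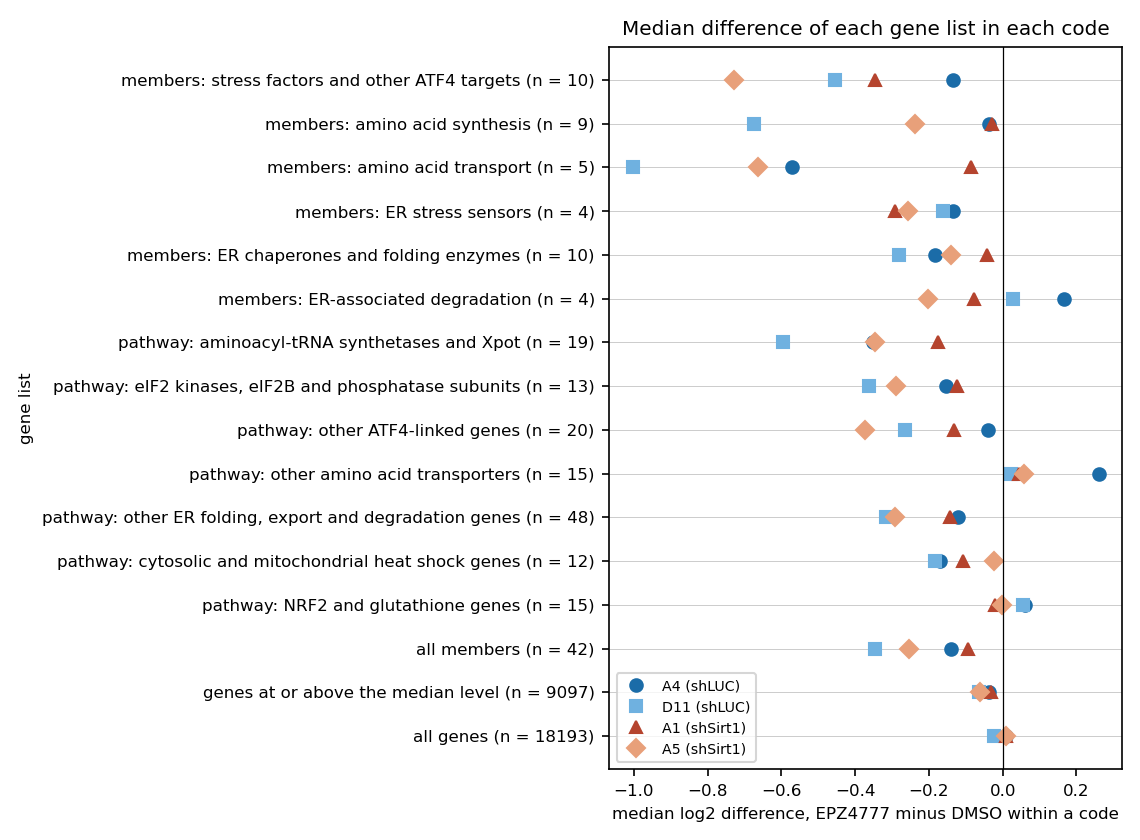
Median log2 difference, EPZ4777 minus DMSO within a code (horizontal axis), of each role, of the 7 further lists, of all 42 genes, of bright genes and of all genes (vertical axis), with a symbol for each code. Synthetases with Xpot lie left of 0 in all 4 codes, other amino acid transporters right of it, and D11 lies left of A4 in every list of the 42 genes.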

How the data were processed

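Total RNA of 8 samples in 4 groups was measured on 8 Affymetrix arrays. The deposited values are intensity values on a linear scale, made by the authors with RMA, per the submitters' processing notes. RMA corrects background, normalizes between arrays, summarises probes and compresses changes of dim genes. RMA's version, probe definition and joint or separate use on the arrays: not given in the sources used here.

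The log2 of each intensity was taken with no pseudocount, filter or further normalization. Of 45101 probe sets, 64 controls were left out, 34945 had 1 gene symbol, 932 had several and 9160 were not listed. Of the 42 genes, 11 had 1 probe set and 31 had 2 or more. limma 3.58.1 in R 4.3.3 fitted the 4 group means to all 8 arrays, with 4 residual degrees of freedom (2 with the code as a fixed block), because 2 arrays per group give too little spread alone. With 2 arrays a side, the smallest exact p is 0.333. The number of arrays limits the precision. All p-values are two-sided, with a threshold of 0.05. Those not called unadjusted are Benjamini-Hochberg adjusted over 18193 genes. Where every probe set was tested, the adjustment was over the 34945 probe sets with 1 gene symbol. Counts at an unadjusted p are given without the share of all genes at that threshold, so no excess can be read from them. The script was tested on simulated data. The 6 comparisons share arrays.

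The genes, roles, further lists, markers and motifs were chosen with earlier results of these data known. Values on every array are given for genes that passed in any fit, for the largest difference under each label and the brightest gene of each role, and for Atf4 and Xbp1. Slc3a2, Eif2ak3, Meis1, Itgam and Pf4 were added after their values were seen. From further lists at most 4 genes that passed are named.

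Titles pair DMSO and EPZ4777 arrays by code. Deviations from the group mean correlated within codes at 0.293 (shLUC) and 0.378 (labelled shSirt1), and between unrelated codes at 0.040 in DMSO and 0.401 in EPZ4777, so the pairing rests on the titles. Alternatives were other ways to join probe sets, removal of dim genes, quantile normalization, median centring, another variance prior, the code as a block, only the arrays compared, and each array left out in turn.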

Additional observations from a re-analysis of the deposited data

Results flagged for a closer look

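For 5 of the 42 genes both codes of one hairpin label moved opposite to both codes of the other under EPZ4777. Among all genes 11.2% did so, a share near that of the 42, so the count itself is not particular to these genes. The difference of effects (labelled shSirt1 minus shLUC) was tested with limma and passed for none of the 5, and its cause was not tested. For Chac1 it was -1.25 ± 0.32 (log2, SE, adjusted p = 0.59), from 0.62 in A4, 0.34 in D11, -0.75 in A1 and -0.79 in A5. For Syvn1 it was -0.48 ± 0.19 (limma adjusted p = 0.73), from 0.35, 0.15, -0.16 and -0.30. For Dnajb9 it was -0.38 ± 0.30 (limma adjusted p = 0.86), for Xbp1 -0.17 ± 0.13 (0.86) and for Pdia3 0.22 ± 0.18 (0.87), with Pdia3 lower in A4 and D11 and near 0 in A1 and A5.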

How the results depend on the processing

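The median difference of the 42 genes kept its sign against DMSO in each alternative run, but with an array left out it ran from -0.38 to -0.09 in shLUC, from -0.28 to -0.06 in labelled shSirt1 and from -0.29 to -0.12 in the average. That of the difference of effects (0.11 with all arrays) ran from -0.06 to 0.25, below 0 without the D11 or the A1 EPZ4777 array. The count that passed in shLUC (2 as reported) was 4 with probe sets averaged per gene, 5 without dim genes, 6 with median centring, 4 with a trended and robust prior, 7 with the code as a fixed replicate block, 7 as a random block and 6 with every probe set by itself, and 0 to 3 with an array left out. In labelled shSirt1 (0 as reported) it was 1 with either block. In the average (6 as reported) it was 12 with the fixed block, 13 with the random block and 11 with every probe set by itself, and 0 to 10 with an array left out. The block changed no other count of these genes. Where each gene was read as 1 value, no result changed sign while called. With every probe set by itself, some calls went against the sign reported for the gene. A dimmer probe set of Sel1l was called lower in shLUC and in the average, and one of Hspa5 higher in the average. The counts given for that alternative include these. The counts over all genes moved too: from 724 in shLUC to 1316 (fixed block), 2379 (random block), 1424 (no dim genes), 1318 (median centring), 402 (only the arrays compared) and 0 to 1031 (an array left out); from 72 in labelled shSirt1 to 404, 504 and, with only the arrays compared, 0, and 0 to 205 with an array left out; from 1979 in the average to 3718 (random block) and 2 to 2588; from 56 between labels in EPZ4777 to 14 with only the arrays compared and 0 to 73 with an array left out; from 0 between labels in DMSO up to 155, and from 0 for the difference of effects to 3 with either block and up to 89, both highest without the A5 DMSO array. A lone array left in a group is assumed to vary like the other groups. The fixed block could not be fitted between labels, since no code occurs under both. Slc7a11 kept its call in 14 of 17 alternatives in shLUC and Trib3 in 12 of 17, and all 8 losses came with an array left out. In the average Slc7a5 kept its call in 10 of 16, Atf6 in 11, Ern1 in 12 and Pdia6 in 8.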
